A study of Rattus norvegicus with 28 samples.

Results

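The genes of the proteasome were followed across the striatum of transgenic and wild-type rats, with and without a peripheral nerve injury. They were the protein-coding genes of the deposited table whose names begin with Psma, Psmb, Psmc, Psmd, Psme, Psmf or Psmg, 49 of 39538 rows. The rule used names only and no measured value, but it was set with earlier results of these data known. 1 further row with a matching name, Psme1-ps1, is a pseudogene and was left out. By role the 49 genes were 8 of the 20S alpha ring, 7 constitutive subunits of the 20S beta ring, 4 immunoproteasome and thymoproteasome beta subunits, 6 ATPases and 11 other subunits of the 19S particle, 3 chaperones of 19S assembly, 4 activator caps, the inhibitor Psmf1, and 4 chaperones of 20S assembly. The last, Psmc3ip, carries a matching name but encodes a recombination factor and is no proteasome subunit.

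RNA was sequenced from the striatum of male rats in 28 libraries, labelled as taken 12 weeks post injury. TG crush (6 libraries) came from rats of genotype {delta}ETorA with a crush of the right sciatic nerve for 30 seconds, TG naive (8 libraries) from {delta}ETorA rats labelled naive, wt crush (6 libraries) from wt rats with the same crush, and wt naive (8 libraries) from wt rats labelled naive. {delta}ETorA rats model the dystonia DYT-TOR1A, in which torsinA, an ATPase of the endoplasmic reticulum and nuclear envelope, lacks a glutamic acid residue. The labels name neither the promoter of the transgene nor the line, and give no age and no procedure for the naive rats. Nothing in them says more about separate animals than a number per library, so a p-value here measures spread among libraries, which may be technical in part. Human TOR1A, counted as its own row, lay at 102 to 144 RPM in the 14 TG libraries and at no more than 0.972 RPM in the 14 wt libraries. RPM is reads per 1000000 reads assigned to genes and is not corrected for gene length. Some libraries stood apart. TG crush 223 had the highest share of mitochondrial reads, and 5 libraries, 1 TG crush, 1 TG naive and 3 wt naive, had over 20 RPM of the cortical gene Slc17a7.

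The proteasome is the main protease of the cytosol and nucleus. Its 20S core is a barrel of alpha and beta rings, and 3 of the beta subunits cut proteins. The 19S particle caps the barrel, binds ubiquitin chains, and unfolds the substrate with a ring of ATPases. In immune cells, and in other cells exposed to interferon, the cutting subunits Psmb5, Psmb6 and Psmb7 are replaced by Psmb8, Psmb9 and Psmb10, and the cap made of Psme1 and Psme2 is induced with them. In neurons the proteasome turns over synaptic proteins, and when it is inhibited the transcription factor encoded by Nfe2l1 raises the genes of the core and of the 19S particle together through antioxidant response elements.

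The promoters bear on the 2 sets of genes the results compare, those of the constitutive particle and those induced by interferon. They were taken from RefSeq (GRCr8) as 300 bases around the annotated start of each gene, 5′ to 3′ on the strand of the gene. Of 49 genes, 44 matched an entry. Psme4, the gene with a call in the crush comparison, and the core genes Psmd1 and Psmb5 are shown first, with the core of the antioxidant response element, TGACNNNGC on either strand, in capitals. The first letters of that core are shared with the motifs of AP-1 and of cyclic AMP signalling.
Psme4 (chr14:108706393-108706692, plus strand): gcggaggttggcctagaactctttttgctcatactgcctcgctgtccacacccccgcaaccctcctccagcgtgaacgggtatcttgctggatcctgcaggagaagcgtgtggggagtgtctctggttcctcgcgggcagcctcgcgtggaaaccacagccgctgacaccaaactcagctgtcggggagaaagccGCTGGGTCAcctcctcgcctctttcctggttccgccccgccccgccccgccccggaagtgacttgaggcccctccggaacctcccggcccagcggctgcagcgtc
Psmd1 (chr9:94157721-94158020, plus strand): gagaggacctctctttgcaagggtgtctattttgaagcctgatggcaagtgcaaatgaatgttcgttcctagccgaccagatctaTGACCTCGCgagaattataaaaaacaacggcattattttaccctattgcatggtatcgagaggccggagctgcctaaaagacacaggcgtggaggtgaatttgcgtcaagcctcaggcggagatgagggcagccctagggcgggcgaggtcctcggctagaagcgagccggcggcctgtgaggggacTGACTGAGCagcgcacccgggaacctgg
Psmb5 (chr15:32047330-32047629, minus strand): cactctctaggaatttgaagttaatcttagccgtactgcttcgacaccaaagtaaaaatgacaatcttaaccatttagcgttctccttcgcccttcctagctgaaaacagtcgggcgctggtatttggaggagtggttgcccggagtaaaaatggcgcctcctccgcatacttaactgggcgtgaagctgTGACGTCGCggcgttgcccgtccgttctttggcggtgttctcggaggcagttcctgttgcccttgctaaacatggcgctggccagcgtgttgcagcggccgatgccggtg
The match lay 55 bases before the annotated start in Psme4, on the opposite strand. In Psmb5 it lay 60 bases before the start, and Psmd1 held 2 matches, 165 bases before the start and 23 bases after it. TGACNNNGC was found in 8 of 44 promoters (18.2%), against 12.2% of all 27457 promoters of the same length.

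Psmb10, Psmb8 and Psme2 are shown for the interferon-inducible genes, with the core of the interferon-stimulated response element, GAAA, any 2 bases and GAAA on either strand, in capitals. Sites of the interferon regulatory factors overlap with it.
Psmb10 (chr19:50743243-50743542, minus strand): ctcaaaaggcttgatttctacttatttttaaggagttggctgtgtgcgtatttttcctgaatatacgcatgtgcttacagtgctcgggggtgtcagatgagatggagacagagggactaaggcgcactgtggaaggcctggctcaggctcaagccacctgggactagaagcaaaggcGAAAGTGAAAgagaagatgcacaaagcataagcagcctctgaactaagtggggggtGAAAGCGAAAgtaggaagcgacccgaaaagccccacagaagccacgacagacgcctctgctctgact
Psmb8 (chr20:4656982-4657281, minus strand): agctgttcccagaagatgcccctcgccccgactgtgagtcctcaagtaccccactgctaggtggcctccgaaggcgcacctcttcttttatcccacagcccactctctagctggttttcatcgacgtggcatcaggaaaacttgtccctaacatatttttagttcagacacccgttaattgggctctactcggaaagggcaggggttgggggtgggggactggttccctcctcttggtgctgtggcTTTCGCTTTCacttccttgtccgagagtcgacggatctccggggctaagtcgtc
Psme2 (chr15:33052702-33053001, minus strand): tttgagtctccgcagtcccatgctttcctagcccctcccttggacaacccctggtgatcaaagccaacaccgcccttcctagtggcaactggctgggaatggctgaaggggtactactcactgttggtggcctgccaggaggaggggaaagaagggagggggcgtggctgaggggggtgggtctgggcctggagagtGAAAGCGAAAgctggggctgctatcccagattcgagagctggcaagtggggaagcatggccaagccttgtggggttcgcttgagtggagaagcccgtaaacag
Psmb10 held 2 matches, 73 and 17 bases before the start, Psme2 held 1 at 53 bases and Psmb8 held 1 at 4 bases before it. This core was found in 7 of 44 promoters (15.9%), against 3.77% of all promoters. The other 4 were Psma4, Psmb3, Psmd7 and Psmg4, of which the first 3 are constitutive subunits. Psmb9 and Psme1, which interferon also induces, held no match in this window. A match of letters describes the window and says nothing about binding.

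Of the 49 genes, 48 had at least 0.5 RPM in at least 6 libraries and were tested. The exception was Psma8, an alpha subunit of the testis, which lay between 0 and 0.0627 RPM, below the 0.103 RPM that a count of 0 allows in the library of lowest depth. Psmb11, the beta subunit of the thymus, lay between 0.412 and 1.73 RPM, close to the limit of the filter. The 31 tested subunits called the 26S core here were read in every library. They are the genes with matching names of the constitutive 20S rings and of the 19S particle without its assembly chaperones. Their mean levels ran from 20.7 RPM for Psmb6 to 181 RPM for Psmd2. These values are per read and not per length, so they give the depth behind each gene and no order of abundance between genes.

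The core subunits varied little. Within groups their SD had a median of 0.0927 on the log2 scale, against 0.121 for 7141 genes with a mean level of 20 to 200 RPM. Across all 28 libraries the highest value of a core subunit was at most 1.49 times the lowest (Psma3), with a median ratio of 1.31. The 4 immunoproteasome and thymoproteasome subunits spread more, from 1.64 times for Psmb10 to 4.21 times for Psmb11, with fewer reads behind them.

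Both injury comparisons set the striatum of rats with a nerve crush against that of naive rats of the same genotype. In bulk tissue, fewer cells of a type and less RNA per cell cannot be told apart. In TG rats, 1 of 48 proteasome genes was called by limma (adjusted p under 0.05), and it was Psme4, higher after crush. Over all 18222 genes tested, 197 were higher (1.08%) and 365 lower (2%), 3.08% in either direction. In wt rats 0 of 48 passed, against 7 genes higher and 22 lower among all genes (0.159%). Without adjustment, 10 of 48 members had p under 0.05 in TG rats and 7 of 48 in wt rats, against 19.3% and 20.8% of all genes. The split of the calls over all genes moved with the scaling. In TG rats it was 273 higher and 306 lower after median-of-ratios rescaling, 287 and 301 after quantile normalization, and 253 and 276 over nuclear reads. In wt rats it was 12 higher and 19 lower after median-of-ratios rescaling, 11 and 16 after quantile normalization, and 12 and 41 over nuclear reads.

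Psme4 encodes PA200, an activator that caps the 20S barrel without binding ubiquitin and opens it for peptides and unstructured proteins (chromosome 14, 115166165 to 115269041, Rnor_6.0, plus strand). Its level in TG crush libraries was 49.4 RPM at the lowest, 58.9 at the median and 66.4 at the highest, against 39.3, 45.6 and 52.0 RPM in TG naive libraries. Wt crush libraries ran from 49.2 over a median of 52.0 to 57.1 RPM, and wt naive libraries from 44.0 over 48.6 to 64.3 RPM. By median the TG naive libraries were the lowest of the 4 groups and the TG crush libraries the highest, with an overlap between them at 49.4 to 52.0 RPM. In TG rats the mean was 58.6 ± 6.11 RPM after crush (SD, n = 6) and 45.5 ± 5.20 RPM in naive rats (SD, n = 8). This was a log2 change of 0.36 (SE 0.08, 95% interval 0.20 to 0.52, limma adjusted p = 0.0105). The corresponding change in wt rats was 0.04 (adjusted p = 0.790). The difference between the 2 changes was 0.32 (SE 0.11) and did not pass (adjusted p = 0.537, unadjusted p = 0.00645).

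The call of Psme4 was kept with each of the 28 libraries left out in turn, where its highest adjusted p was 0.0374, without TG crush 220. It was lost when the 5 libraries with over 20 RPM of Slc17a7, a gene of cortical excitatory neurons, were left out together. The log2 change was then 0.32 (adjusted p = 0.0765), from 5 TG crush and 7 TG naive libraries.

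**Figure D1:**
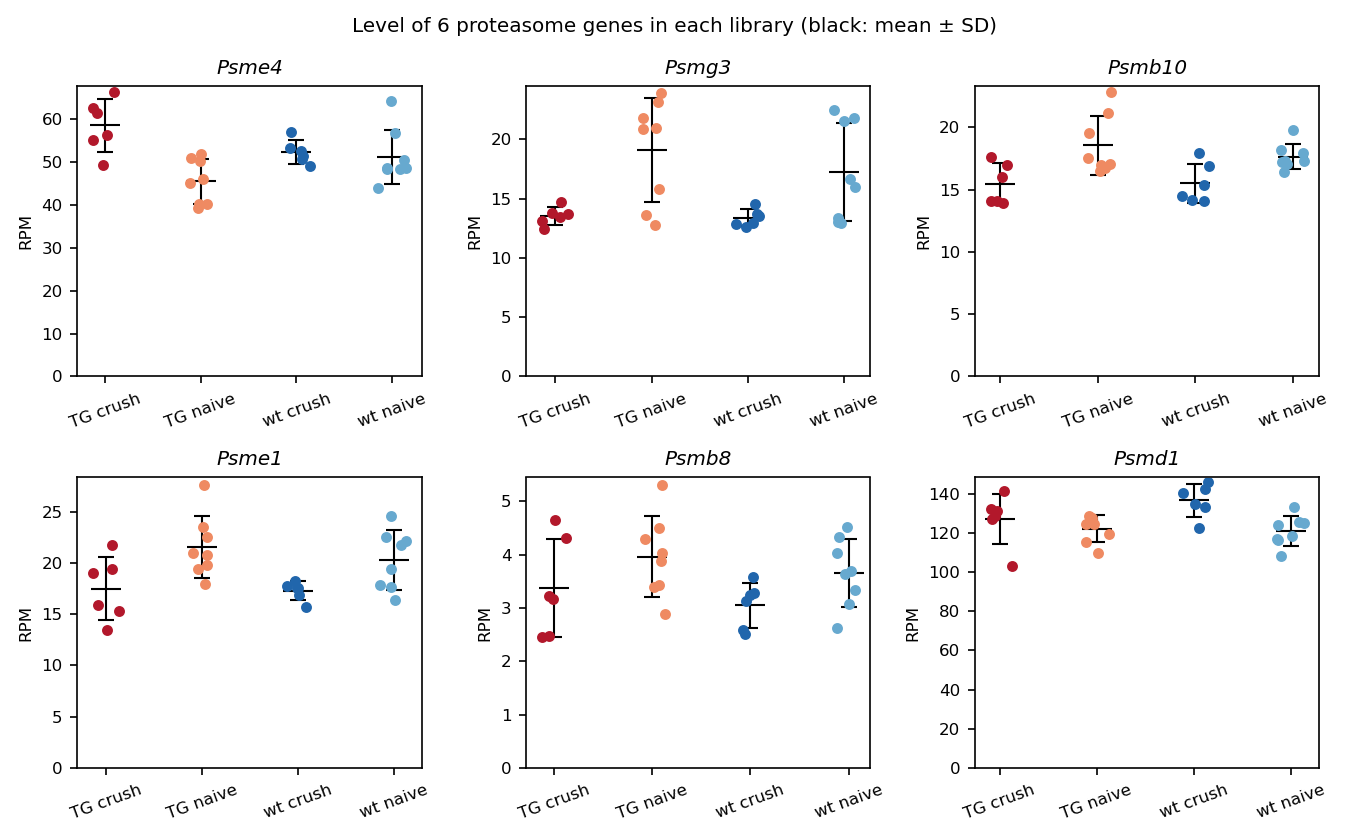
Level of Psme4, Psmg3, Psmb10, Psme1, Psmb8 and Psmd1 in each library (y axes, RPM, from 0), by group (x axes), with the mean and SD in black. TG crush libraries of Psme4 reach 66.4 RPM and TG naive libraries 52.0 RPM, and the 12 crush libraries of Psmg3 stay at or below 14.7 RPM.

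None of the other 3 caps passed in either genotype. Psme1, a subunit of the interferon-inducible PA28 cap, ran from 13.5 over a median of 17.5 to 21.8 RPM in TG crush libraries, against 17.9, 20.9 and 27.7 RPM in TG naive libraries (log2 change -0.30, SE 0.10, adjusted p = 0.0879). In wt crush libraries it ran from 15.7 over 17.6 to 18.3 RPM, against 16.4, 20.6 and 24.6 RPM in wt naive libraries (-0.21, SE 0.10, adjusted p = 0.219). Its median was thus lower after crush in both genotypes, with overlapping groups, and in TG rats it was called when TG crush 223 was left out (adjusted p = 0.0264). In TG rats the adjusted p of Psme1 was 0.253 without TG crush 222 and 0.262 without the libraries high in Slc17a7. Psme2, the partner of Psme1, lay between 3.79 and 5.83 RPM in TG crush libraries with a median of 4.67, and between 4.04 and 5.85 with a median of 4.86 in TG naive libraries. Wt crush libraries had 4.05, 4.47 and 4.95 RPM of Psme2 at the lowest, median and highest, against 4.15, 5.02 and 6.05 RPM in wt naive libraries. Psme3, the nuclear cap of the same family, differed least. It ran from 51.1 over 57.6 to 60.6 RPM in TG crush and from 52.8 over 56.5 to 60.6 RPM in TG naive libraries, and from 52.2 over 55.3 to 57.6 RPM in wt crush and from 53.0 over 57.0 to 60.7 RPM in wt naive libraries. For Psme3 the 95% intervals of the log2 change were -0.08 to 0.10 in TG rats and -0.12 to 0.05 in wt rats.

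The beta subunits that replace the constitutive cutting subunits were lower on average after crush in both genotypes, and none passed the test. Psmb10, which replaces Psmb7, ran from 13.9 over a median of 15.1 to 17.7 RPM in TG crush libraries, against 16.5, 17.3 and 22.9 RPM in TG naive libraries (log2 change -0.25, SE 0.07, adjusted p = 0.0577). In wt crush libraries it ran from 14.1 over 14.97 to 17.97 RPM, against 16.4, 17.3 and 19.8 RPM in wt naive libraries (-0.19, SE 0.07, adjusted p = 0.175). Most crush libraries lay below the naive ones of their genotype, with some overlap. In TG rats Psmb10 was called when TG crush 223 (adjusted p = 0.0239), TG crush 226, TG naive 187 or TG naive 188 was left out. Other omissions weakened it, with an adjusted p of 0.163 without TG crush 222 and 0.264 without the libraries high in Slc17a7.

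Psmb8, which replaces Psmb5, had 2.45, 3.20 and 4.65 RPM at the lowest, median and highest in TG crush libraries, against 2.88, 3.95 and 5.31 RPM in TG naive libraries. The values in wt crush libraries were 2.50, 3.19 and 3.58 RPM, against 2.62, 3.66 and 4.52 RPM in wt naive libraries. Psmb9, which replaces Psmb6, had 1.82, 2.64 and 4.77 RPM in TG crush libraries, against 2.62, 2.90 and 4.32 RPM in TG naive libraries. Psmb9 in wt crush libraries had 2.02, 2.57 and 3.14 RPM, against 2.29, 3.13 and 4.09 RPM in wt naive libraries. The groups of both genes overlapped widely, and their 95% intervals were broad, as for Psmb8 in TG rats (-0.49 to 0.05). With Psmb11, 4 of 4 subunits had a negative change in each genotype, with medians of -0.19 in TG rats and -0.20 in wt rats, against -0.01 and -0.03 over all genes tested. Of all genes tested, 53.7% had a negative change in TG rats and 58.8% in wt rats. In wt rats 3 of 4 subunits were negative once the level of spiny neuron markers was a covariate, and also without the libraries high in Slc17a7.

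None of the constitutive counterparts passed either, and the 2 sets were not tested against each other. Psmb5, the subunit of chymotrypsin-like activity, ran from 63.5 over 69.2 to 75.6 RPM in TG crush libraries, against 71.4, 77.8 and 83.9 RPM in TG naive libraries (log2 change -0.14, SE 0.05, adjusted p = 0.139). In wt crush libraries it ran from 70.3 over 73.0 to 73.5 RPM, against 66.7, 73.7 and 84.3 RPM in wt naive libraries. The wt crush libraries lay inside the range of the wt naive ones. Psmb6, of caspase-like activity, ran from 17.7 over 19.2 to 22.0 RPM in TG crush libraries, against 20.3, 21.0 and 22.6 RPM in TG naive libraries. Psmb6 in wt crush libraries ran from 18.1 over 20.3 to 21.4 RPM, against 18.8, 22.2 and 22.8 RPM in wt naive libraries. Psmb7, of trypsin-like activity, had log2 changes of 0.00 in both genotypes, with 95% intervals of -0.08 to 0.09 in TG rats and -0.08 to 0.08 in wt rats. Its range was 75.1 to 91.1 RPM in TG crush (median 86.6), 82.0 to 91.1 in TG naive (85.3), 82.5 to 91.1 in wt crush (89.3) and 82.9 to 93.2 in wt naive libraries (88.3).

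Reads of Psmb6 can be shared with a near-identical gene. Psmb6l1 (LOC100360846 in the table) averaged 43.8 RPM, against 20.7 RPM for Psmb6, so values of Psmb6 are uncertain. By current RefSeq symbols, 45 rows are copies of a proteasome gene, and 12 of them averaged at least 1 RPM. Copies with at least 10% of their parent's reads were found for 5 parents, Psmb6, Psma6, Psme3, Psmb3 and Psme1. The pseudogene Psme1-ps1 averaged 5.21 RPM, 26.8% of the level of Psme1. None of the copies shown for these 5 parents passed the test after crush.

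Over the 31 core subunits, none passed in either genotype. In TG rats 12 changes were positive and 19 negative, with a median of -0.01. In wt rats 20 were positive and 11 negative, with a median of 0.03. Of all genes tested, 53.7% had a negative change in TG rats and 58.8% in wt rats. The median of the core subunits in TG rats turned positive under 3 of the 15 alternatives, and was 0.0034 after median-of-ratios rescaling. All 31 had 95% intervals within 0.3 of 0 on the log2 scale in both genotypes. Of the 48 proteasome genes tested, 40 in TG rats and 41 in wt rats had such an interval. Among all 18222 genes tested it was 9850 in TG rats and 9626 in wt rats. The median SE was 0.052 for the core subunits and 0.087 over all genes tested, in both genotypes.

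Among core subunits, Psmd1 had the lowest p in wt rats. Psmd1 is the large scaffold of the 19S base (chromosome 9, 93080618 to 93155033, Rnor_6.0, plus strand). It ran from 123 over a median of 138 to 146 RPM in wt crush libraries, against 108, 121 and 133 RPM in wt naive libraries (log2 change 0.18, SE 0.06, adjusted p = 0.132). In TG rats it ran from 103 over 130 to 141 RPM after crush, against 110, 125 and 129 RPM in naive rats (0.05, adjusted p = 0.669). The wt crush libraries were mostly above the wt naive ones, with an overlap between 123 and 133 RPM. The other core subunits with an unadjusted p under 0.05 were Psma1 and Psmb2 in wt rats (log2 changes of 0.11 and 0.10), and Psma3, Psmb4, Psmb5, Psmc5 and Psmd4 in TG rats, where Psma3 was the positive one. Psma3, a subunit of the alpha ring, ran from 34.9 over 37.5 to 47.3 RPM in TG crush libraries, against 32.9, 35.6 and 40.0 RPM in TG naive libraries (0.12, SE 0.06, adjusted p = 0.233). Psma3 in wt crush libraries ran from 33.9 over 36.4 to 39.1 RPM, against 31.7, 34.0 and 37.6 RPM in wt naive libraries.

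The chaperones of 20S assembly did not pass either, and 1 of them had an uneven pattern. Psmg3, a chaperone that helps to build the alpha ring (chromosome 12, 16898999 to 16901945, Rnor_6.0, plus strand), ran from 12.4 over a median of 13.6 to 14.7 RPM in TG crush libraries, against 12.7, 20.9 and 23.9 RPM in TG naive libraries (log2 change -0.45, SE 0.14, adjusted p = 0.0637). In wt crush libraries it ran from 12.6 over 13.2 to 14.6 RPM, against 12.9, 16.3 and 22.4 RPM in wt naive libraries (-0.32, SE 0.14, adjusted p = 0.192). The naive libraries were spread in both genotypes. Above 20 RPM lay 5 of 8 TG naive and 3 of 8 wt naive libraries, between 20.9 and 23.9 RPM, and 0 of 12 crush libraries. The other 20 libraries of the study lay between 12.4 and 16.6 RPM. At these levels the lowest library held 371 reads of Psmg3. In TG rats Psmg3 was called when TG naive 188 (adjusted p = 0.0173) or TG naive 189 (adjusted p = 0.0409) was left out. Without TG crush 222 its adjusted p was 0.156.

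Psmg1 ran from 21.3 over 22.5 to 26.6 RPM in TG crush libraries, against 22.7, 24.4 and 27.3 RPM in TG naive libraries, and from 20.9 over 23.0 to 25.6 RPM in wt crush libraries, against 22.1, 24.6 and 27.8 RPM in wt naive libraries. Psmg2, its partner in the chaperone that begins the alpha ring, ran from 9.85 over 11.3 to 13.5 RPM in TG crush libraries, against 9.41, 10.4 and 11.7 RPM in TG naive libraries, and from 9.90 over 11.0 to 12.1 RPM in wt crush libraries, against 9.99, 10.8 and 12.7 RPM in wt naive libraries. Psmg4, the partner of Psmg3, ran from 12.3 over 13.5 to 14.2 RPM in TG crush libraries, against 11.3, 11.7 and 13.1 RPM in TG naive libraries (log2 change 0.14, SE 0.06, adjusted p = 0.207). Psmg4 in wt crush libraries ran from 11.8 over 12.6 to 14.1 RPM, against 10.1, 11.5 and 13.8 RPM in wt naive libraries (0.14, SE 0.06, adjusted p = 0.194). Psmg4 and Psmg3 thus had changes of opposite sign in both genotypes, although their proteins act as a pair. Psmg4 shares 1105 bases with Slc22a23 on the opposite strand, which averaged 146 RPM, and Psmg2 shares 5194 bases with Ptpn2. The strand setting of the counting was not given in the sources, and both genes are uncertain.

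The inhibitor gene Psmf1, whose product PI31 binds the 20S barrel, ran from 25.7 over 28.4 to 32.4 RPM in TG crush libraries, against 24.4, 28.8 and 30.8 RPM in TG naive libraries. Wt crush libraries ran from 24.6 over 27.0 to 29.6 RPM, against 23.4, 27.8 and 32.8 RPM in wt naive libraries. All 4 groups of Psmf1 overlapped, with log2 changes of 0.02 in TG rats and -0.03 in wt rats. The 3 chaperones of the 19S base, Psmd5, Psmd9 and Psmd10, had log2 changes between -0.15 and 0.11 in TG rats and between -0.09 and 0.04 in wt rats, with no call. Psmc3ip changed by -0.05 and 0.03 on the same scale.

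**Figure D2:**
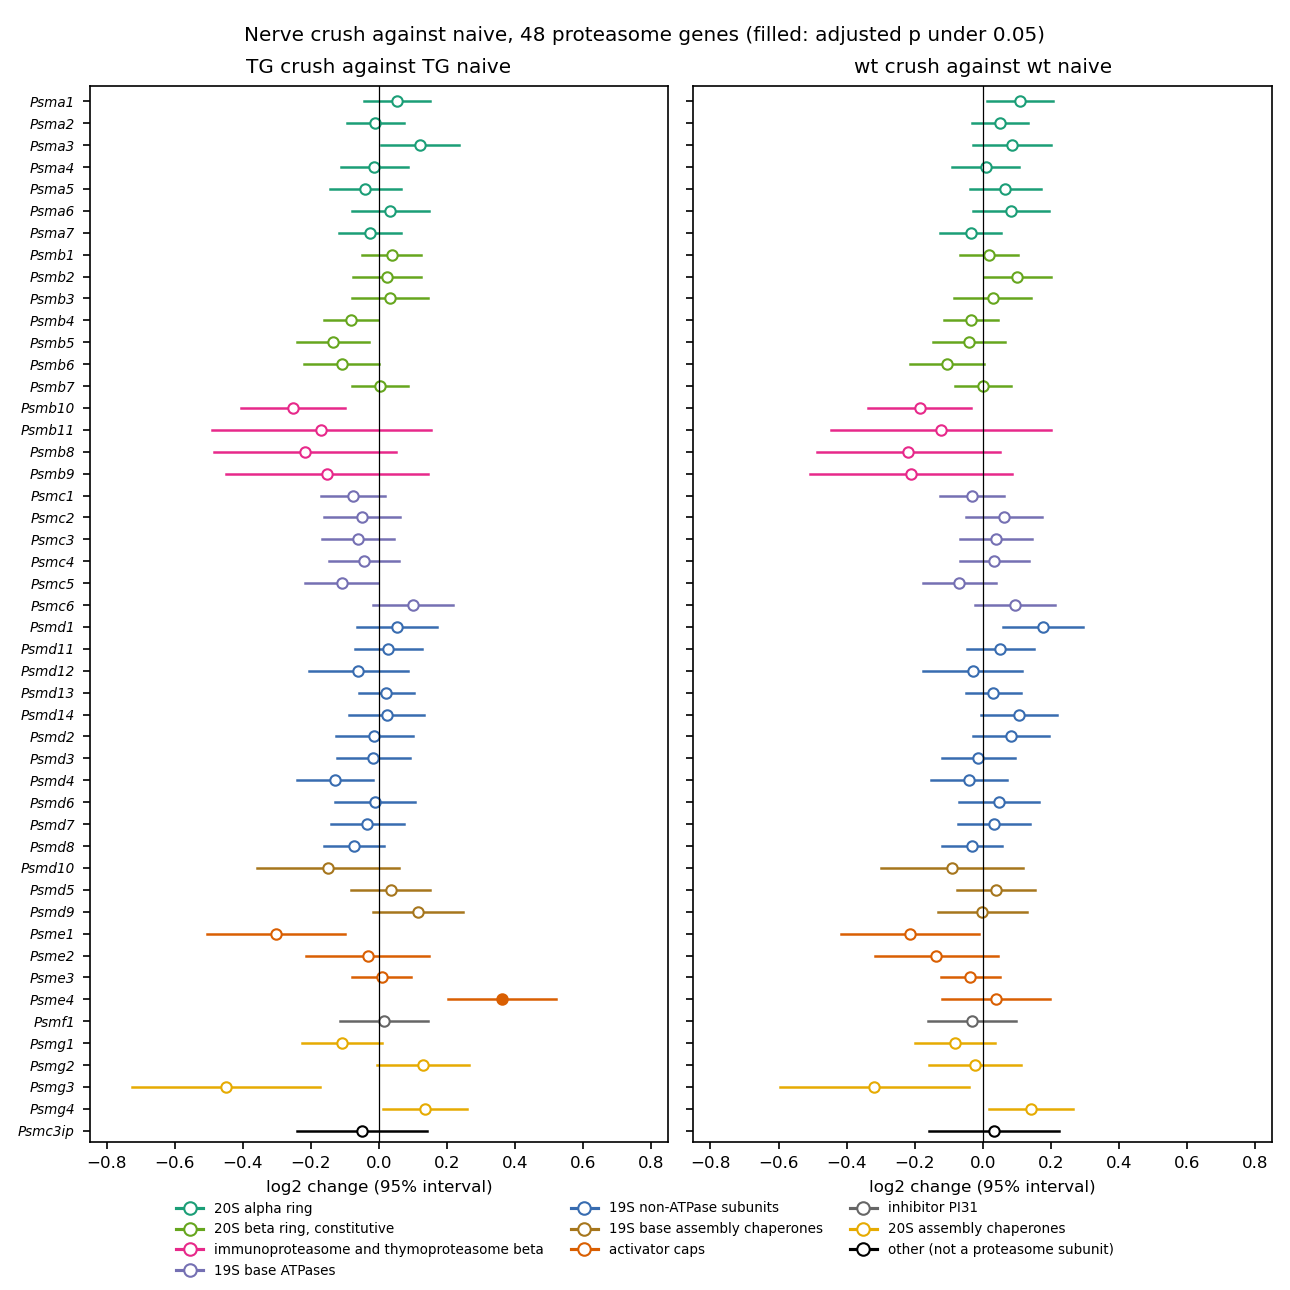
Log2 change after crush for each of 48 proteasome genes (y axes, ordered and coloured by role), with 95% intervals (x axes), in TG rats on the left and wt rats on the right. Psme4 in TG rats is the 1 filled point, at 0.36, and the other 47 genes in TG rats and all 48 in wt rats did not pass the test.

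Transgenic and wild-type rats were compared to ask which genes differ with the {delta}ETorA transgene, without and with the injury. No proteasome gene passed in naive rats, in crush rats or over both arms (0 of 48 each). Over all genes the calls were 6 in naive rats (0.0329%), with 3 in the higher (0.0165%) and 3 in the lower direction (0.0165%), 1 in crush rats (0.00549%, higher) and 7 over both arms (0.0384%), with 4 higher (0.022%) and 3 lower (0.0165%). Unadjusted p under 0.05 was found for 1 of 48 proteasome genes in naive rats (4.98% of all genes), for 0 of 48 in crush rats (8.06%) and for 0 of 48 over both arms (5.09%). The 1 gene was Psme4, lower in TG naive rats by a log2 change of -0.17 (95% interval -0.31 to -0.02, adjusted p = 0.952), in a comparison that shares the TG naive libraries with the injury comparison. In crush rats Psme4 differed by 0.16 in the other direction (adjusted p = 0.632).

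In naive rats the 31 core subunits lay close to 0, with 14 positive and 17 negative log2 changes, from -0.063 to 0.055. Of all genes tested, 56.7% had a negative change. All 31 had 95% intervals within 0.2 of 0, so changes of more than that size in any core subunit lie outside the intervals. Among all 18222 genes tested, 7491 had such an interval. Psma7, an alpha subunit, had the lowest p of the core subunits. It ran from 67.1 over 74.5 to 83.3 RPM in TG naive libraries, against 70.5, 78.5 and 85.7 RPM in wt naive libraries (log2 change -0.06, SE 0.04, adjusted p = 0.999). After crush it ran from 66.6 over 74.0 to 77.3 RPM in TG libraries, against 73.6, 75.8 and 77.4 RPM in wt libraries (-0.05, adjusted p = 0.765).

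In crush rats 29 of 31 core subunits had a negative change in TG rats, with a median of -0.05, against 0.00 over all genes tested, and none passed. This count was 27 of 31 after quantile normalization and 29 of 31 after median-of-ratios rescaling and over nuclear reads. Of all 18222 genes tested, 9110 had a negative change. The core subunits were mostly positively correlated over the same libraries (median Pearson's r between pairs 0.46), so their signs are not separate observations. The lowest p belonged to Psmc2, an ATPase of the 19S ring. It ran from 76.5 over 96.1 to 106 RPM in TG crush libraries, against 93.9, 103 and 107 RPM in wt crush libraries (log2 change -0.12, SE 0.06, adjusted p = 0.620). Naive libraries held 92.2, 96.8 and 104 RPM of Psmc2 in TG rats, against 91.0, 93.4 and 107 RPM in wt rats. Psmd2, the scaffold of the 19S base that docks ubiquitin-like proteins, ran from 142 over 182 to 192 RPM in TG crush libraries, against 171, 191 and 201 RPM in wt crush libraries (-0.11, SE 0.06, adjusted p = 0.630). In naive libraries Psmd2 ran from 162 over 178 to 188 RPM in TG rats, against 166, 179 and 201 RPM in wt rats.

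Library TG crush 223 was the lowest of its group for most core subunits, among them Psmc2, Psma7, Psmb5 and every non-ATPase subunit of the 19S particle, such as Psmd1 and Psmd2. Without it, the median of the core subunits between TG and wt crush rats was -0.02, with 27 of 31 negative. That library also had the highest share of reads from mitochondrial genes, 18.5%, where all 28 ranged from 10.4% up to that value. Within TG crush it had the lowest sum of spiny neuron markers (8377 RPM) and the highest sum of oligodendrocyte markers (35159 RPM). The interaction of genotype and crush passed for 0 of 48 proteasome genes and 1 of all genes (0.00549%), and its unadjusted p was under 0.05 for 1 of 48 and for 7.49% of all genes. Psme4 led, and Psmg2 (0.15, SE 0.09, adjusted p = 0.704) and Psmd1 (-0.12, SE 0.08, adjusted p = 0.720) came next.

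**Figure D3:**
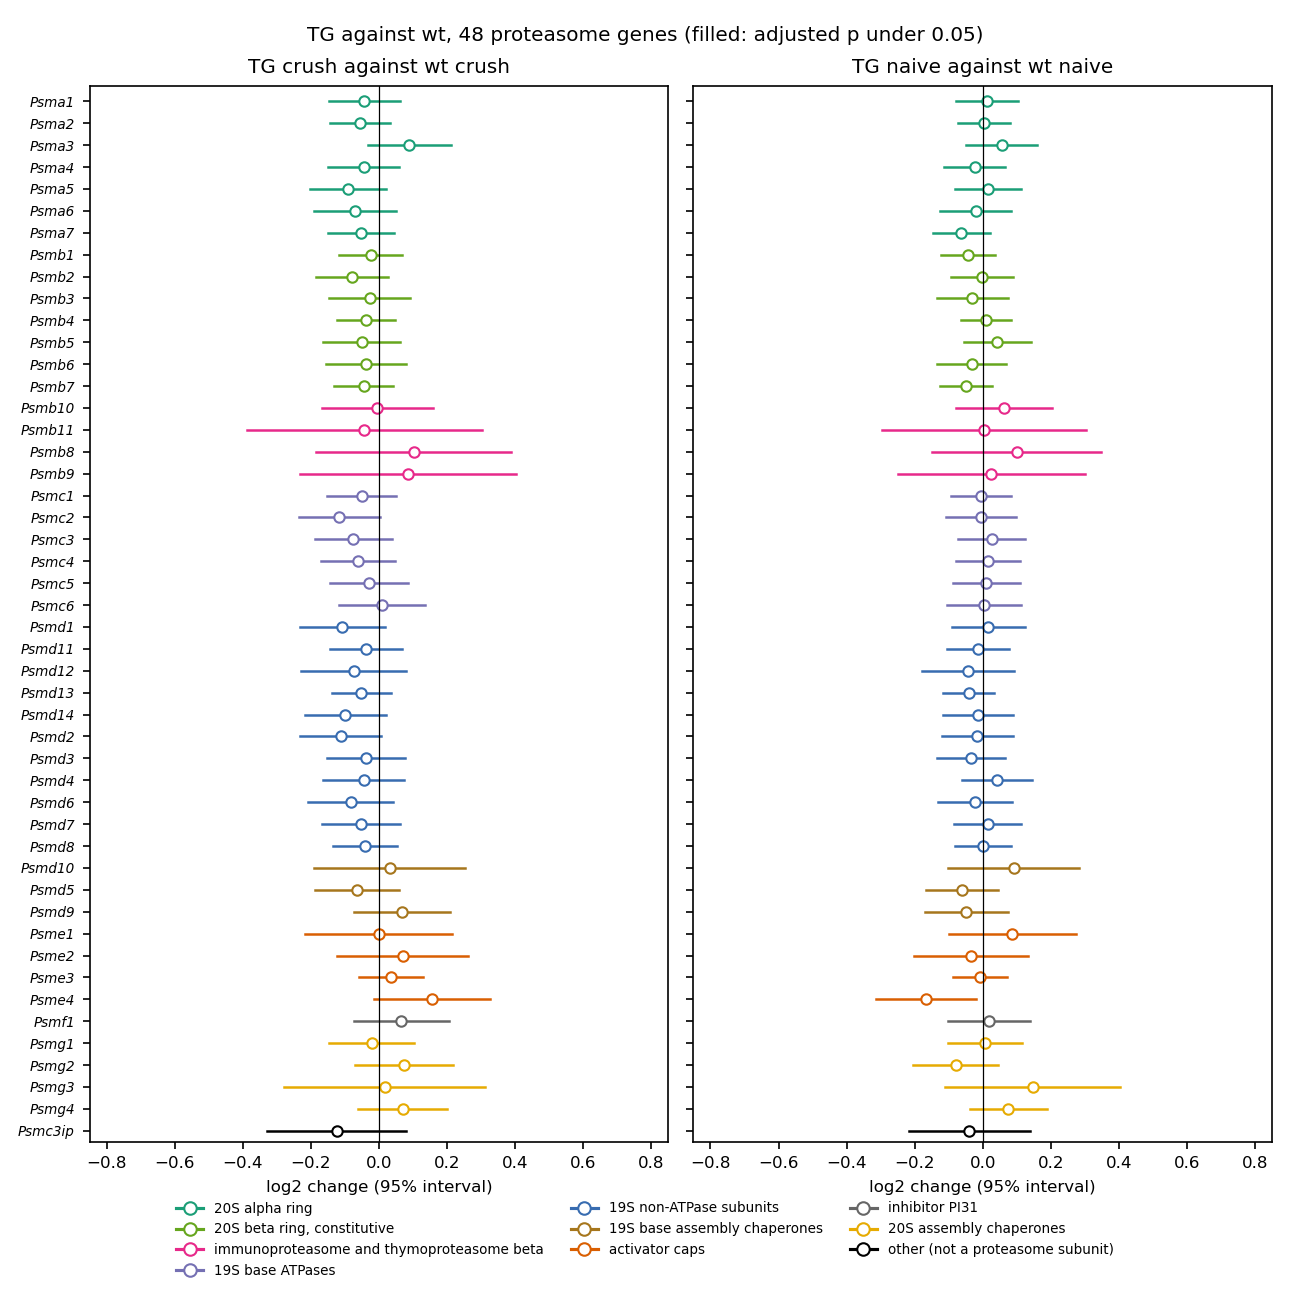
Log2 change of TG against wt for each of 48 proteasome genes (y axes, ordered and coloured by role), with 95% intervals (x axes), after crush on the left and in naive rats on the right. No point is filled, since none passed the test, and 29 of 31 core subunits lie left of 0 after crush. Of all 18222 genes tested, 9110 had a negative change after crush.

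The summed level of the 31 core subunits gives the share of reads from these genes. It leaves out genes of other names, such as Psmb6l1. The sum ran from 2108 over a median of 2413 to 2607 RPM in TG crush libraries, against 2347, 2432 and 2506 RPM in TG naive libraries. It ran from 2341 over 2514 to 2538 RPM in wt crush libraries, against 2317, 2423 and 2575 RPM in wt naive libraries. The TG crush group held both the lowest and the highest library of the study. The lowest, TG crush 223, had the highest mitochondrial share (18.5%), and the highest, TG crush 219, had the lowest (10.4%). Counted per 1000000 nuclear reads, the sum was 2586 RPM in TG crush 223 and 2909 RPM in TG crush 219. The part of the mitochondrial share in the group differences was not tested apart from this rescaling, under which no other member was called.

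**Figure D4:**
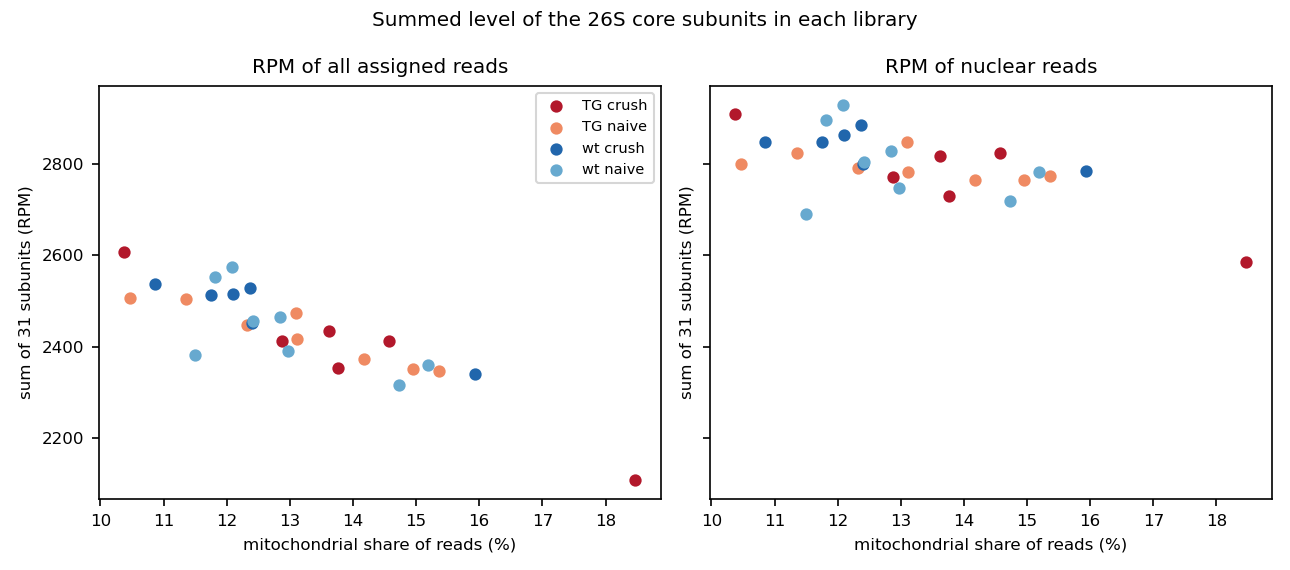
Summed level of 31 core subunits (y axes, RPM, not from 0) against the share of reads from mitochondrial genes (x axes, percent), with 1 point per library coloured by group, per 1000000 assigned reads on the left and per 1000000 nuclear reads on the right. TG crush 223 stands at the lower right of both panels, with 2108 and 2586 RPM.

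Core subunits were mostly positively correlated from library to library, and pairs of genes outside the proteasome were not measured for comparison. Over 28 libraries, as deviations from the group means, Pearson's r between pairs of the 31 subunits had a median of 0.46, and 95.5% of 465 pairs were positive. The pairs share library, depth and scaling, and over nuclear reads the median was 0.24 with 77.8% positive. Within the 19S particle the median was 0.57 and within the constitutive 20S rings 0.39. Psmd2 with Psmc2 (0.88) and Psma2 with Psma5 (0.87) were among the closest pairs. The 5 interferon-inducible genes Psmb8, Psmb9, Psmb10, Psme1 and Psme2 formed 10 pairs, all positive, with a median of 0.60, and their median with the core was -0.02. Of these 155 pairs with the core 45.2% were positive. Psmb10 and Psmd1 had the lowest r (-0.66), and Psme2 and Psmd12 the highest (0.66). Psme4 was closest to Psma3 (0.56) and had an r of -0.44 with Psmc3. Psmg3 was closest to Psmd9 (0.69) and Psma7 (0.68). These correlations describe the libraries and were given no test.

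**Figure D5:**
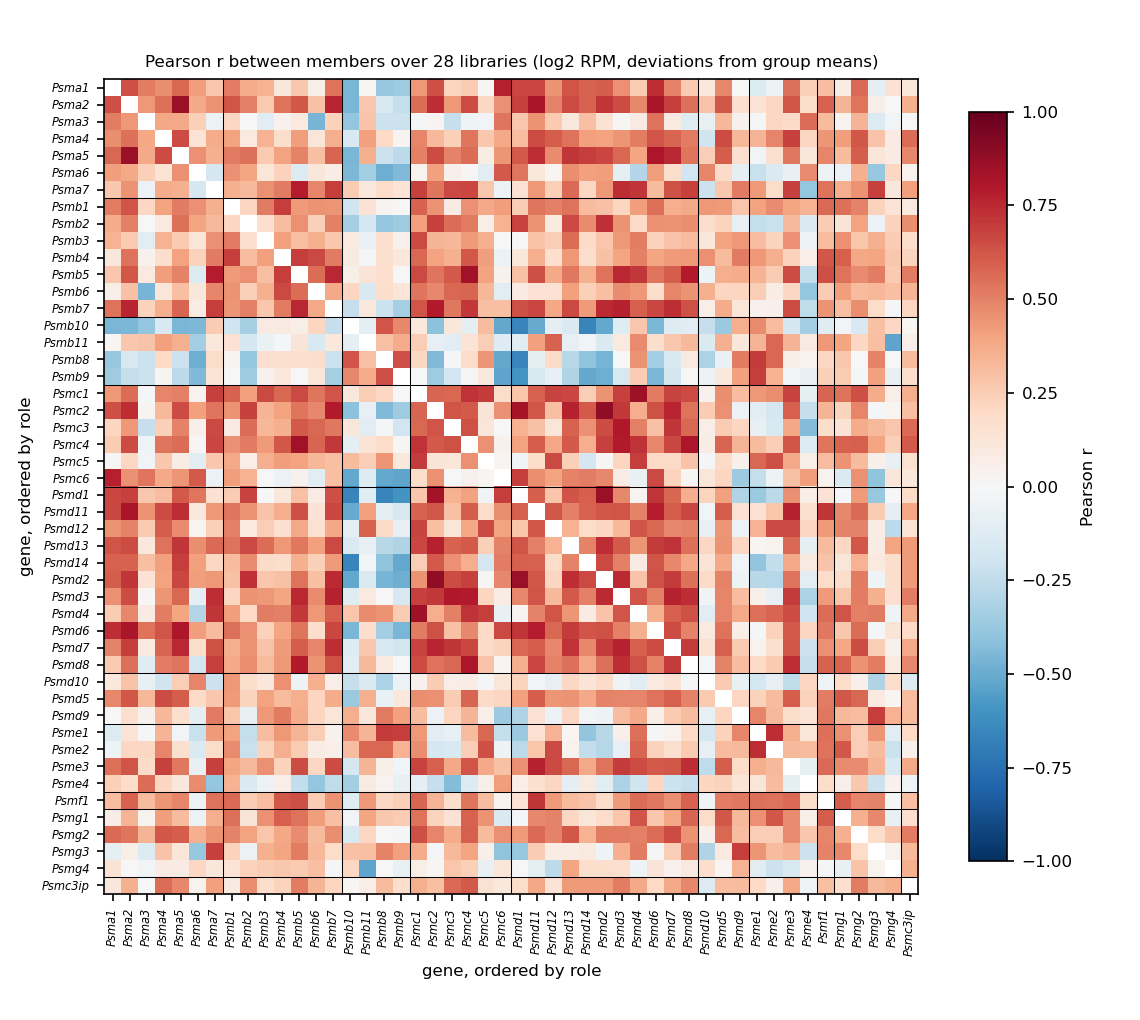
Pearson's r between each pair of 48 proteasome genes over 28 libraries (both axes list the genes by role, colour gives r from -1 in blue to 1 in red, the diagonal is blank), from log2 RPM as deviations from group means. The core subunits form red blocks. Psmb8, Psmb9 and Psmb10 are blue against several 19S subunits such as Psmd1, and red against others such as Psmd4.

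Genes that work beside the proteasome were followed in 4 lists. Of all genes tested, 1.08% were called higher and 2% lower in TG rats after crush. Among 10 partners outside the Psm names, 1 was higher and 9 did not pass in TG rats after crush. The 1 was Zfand5, whose product binds the 26S particle and raises its activity. It ran from 108 over 127 to 149 RPM in TG crush libraries, against 93.2, 103 and 116 RPM in TG naive libraries (log2 change 0.30, SE 0.07, adjusted p = 0.0208). In wt crush libraries it ran from 106 over 123 to 130 RPM, against 88.0, 108 and 119 RPM in wt naive libraries (0.17, adjusted p = 0.195). Akirin2, which brings proteasomes into the nucleus, Fbxo7, which binds PI31, and Ublcp1, a phosphatase of the 19S particle, had the lowest p of this list between genotypes, with log2 changes of -0.05 in naive rats, -0.04 over both arms and 0.11 in crush rats.

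Among 7 regulators of proteasome genes, Mafg was lower in TG rats after crush and 6 did not pass. Mafg encodes a small Maf protein that binds antioxidant response elements as the partner of the Nfe2l factors. It ran from 77.8 over 86.5 to 91.9 RPM in TG crush libraries, against 89.3, 94.0 and 99.5 RPM in TG naive libraries (log2 change -0.14, SE 0.04, adjusted p = 0.0342). Mafg in wt crush libraries ran from 82.1 over 83.3 to 87.9 RPM, against 85.6, 90.8 and 92.9 RPM in wt naive libraries (-0.10, adjusted p = 0.168). Nfe2l1 itself ran from 271 over 314 to 331 RPM in TG crush libraries, against 301, 332 and 345 RPM in TG naive libraries (-0.07, adjusted p = 0.324). Wt crush libraries held 300, 317 and 328 RPM of Nfe2l1, against 316, 323 and 332 RPM in wt naive libraries. Nfe2l2, the regulator of the oxidative stress response, had the lowest p of the list between genotypes after crush (0.17, adjusted p = 0.630).

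Among 17 genes of ubiquitin and of delivery to the proteasome, 1 was higher, 2 were lower and 14 did not pass in TG rats after crush. Of the lower ones, Ubqln4, a shuttle that carries ubiquitinated proteins, ran from 83.5 over 89.5 to 99.7 RPM in TG crush libraries, against 97.4, 104 and 112 RPM in TG naive libraries (log2 change -0.21, SE 0.04, adjusted p = 0.00623). Rad23b, another shuttle, was the higher one. It ran from 120 over 141 to 159 RPM in TG crush libraries, against 101.3, 117 and 141 RPM in TG naive libraries (0.25, SE 0.07, adjusted p = 0.0461). In wt rats the changes after crush were -0.06 for Ubqln4 and 0.14 for Rad23b, and none of the 17 passed. Rps27a had the lowest p there (-0.19, adjusted p = 0.149), and between genotypes Ufd1l in naive rats (-0.10), Ubb in crush rats (-0.16) and Uba1 over both arms (-0.08), all with no call.

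The list of antigen loading and interferon response was followed because Psmb8, Psmb9 and Psmb10 serve the same pathway. Of its 17 genes 1 was lower in TG rats after crush and 16 did not pass. This was Bst2, an antiviral membrane protein, with 4.25, 5.78 and 7.50 RPM at the lowest, median and highest in TG crush libraries, against 6.70, 8.51 and 15.7 RPM in TG naive libraries (log2 change -0.61, SE 0.15, adjusted p = 0.0229). Bst2 in wt crush libraries had 4.57, 4.74 and 5.90 RPM, against 5.42, 7.02 and 9.97 RPM in wt naive libraries (-0.42, SE 0.15, adjusted p = 0.149). Tap2, which carries proteasome products into the endoplasmic reticulum, led in wt rats with 3.64, 4.18 and 4.56 RPM in wt crush libraries, against 4.47, 5.36 and 6.32 RPM in wt naive libraries (-0.32, SE 0.08, adjusted p = 0.0713). The medians of the list were -0.08 in TG rats and -0.32 in wt rats, against -0.01 and -0.03 over all genes. Ifit3 had the lowest p of the list between genotypes after crush (0.63, adjusted p = 0.601), and Mx1 for the interaction (0.82, adjusted p = 0.655).

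Markers of cell types moved in the same comparisons. All 17 spiny projection neuron markers were detected in all 4 groups. Their sum had a range of 8377 to 15724 RPM in TG crush (median 12255), 8589 to 14606 in TG naive (13504), 13714 to 15855 in wt crush (14881) and 7769 to 15525 in wt naive libraries (12125). All 17 were lower on average in TG than in wt crush rats, and none of the 17 passed. In that comparison 29 of 31 core subunits and 9110 of all 18222 genes tested were negative. After crush in wt rats all 17 were higher on average (median log2 change 0.39), the comparison in which 20 of 31 core subunits were positive. In the interaction all 17 were negative (median -0.37), as were 25 of 31 core subunits and 46.4% of all genes tested. Over both arms 16 of 17 markers (median -0.06), 29 of 31 core subunits and 54.9% of all genes tested were negative in TG against wt rats. The interaction and the comparison over both arms are built from the same 4 groups as the rest, so their signs are not separate observations. In naive rats all 17 were higher on average in TG rats (median 0.12), where 14 core subunits were positive and 17 negative. After crush in TG rats 7 markers were positive and 10 negative, and 12 core subunits were positive and 19 negative. With the level of these markers as a covariate, the median change of the core subunits between TG and wt crush rats was -0.05 with 29 of 31 negative, that after crush in wt rats was 0.02 with 22 of 31 positive, and that of the interaction was -0.04 with 24 of 31 negative. Microglia are among the cells that can hold immunoproteasome, and their markers summed to 650 to 965 RPM in TG crush (median 768), 698 to 1015 in TG naive (899), 683 to 820 in wt crush (717) and 649 to 1024 in wt naive libraries (871). Of 12 microglial markers 1 was lower in TG rats after crush, and 10 of 12 had a negative change there, as did 11 of 12 in wt rats. Of all genes tested, 2% were called lower in TG rats after crush, and changes were negative for 53.7% there and 58.8% in wt rats. Of 8 endothelial markers tested, 3 were lower in TG rats after crush and all 8 were negative in both genotypes. Endothelial sums had medians of 345 RPM in TG crush and 424 in TG naive libraries, and of 357 in wt crush and 418 in wt naive libraries, with whole ranges of 318 to 454, 388 to 470, 333 to 412 and 354 to 456 RPM. Of 10 astrocyte markers, 8 had a negative change after crush in TG rats and 10 in wt rats, with medians of -0.17 in each and no call. Astrocyte sums had medians of 7349 RPM in TG crush and 8333 in TG naive libraries, and of 7249 in wt crush and 8131 in wt naive libraries, with whole ranges of 6578 to 8991, 7690 to 8988, 6933 to 7532 and 7096 to 9464 RPM. Of 9 oligodendrocyte markers, 5 had a positive change after crush in TG rats (median 0.01) and 1 in wt rats (median -0.05), with no call. The part of microglial, endothelial and astrocyte RNA in the lower averages of Psmb8, Psmb9, Psmb10 and Psme1 was not tested. Likewise, the part of spiny neuron RNA in the changes of the core subunits was not tested apart from the covariate fit. Cortical excitatory markers had low sums in most libraries. Their medians were 8.77 RPM in TG crush, 7.50 in TG naive, 4.47 in wt crush and 9.51 in wt naive libraries. The highest values were 73.7, 67.8, 7.24 and 66.7 RPM in the same order.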

How the data were processed

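Per the labels' protocols, 28 striatal samples were sequenced (single-end, 75 nt, 2 runs) after stranded mRNA library preparation. The labels do not say which library was in which run, so differences between runs cannot be told apart from those between groups. STAR 2.6.1a, featureCounts of Subread 1.6.3, DESeq2 1.22.2 and Rnor_6.0 are named in the submitters' processing notes. The authors' deposited table holds RPKM, written with decimal commas and recorded here as another unit for that reason. Its length column is the span of each gene with introns, so RPKM was multiplied by length over 1000 to give RPM. These were whole reads within a tolerance of 0.02 for 100% of values, at 29151455 to 38407359 assigned reads per library. Floors cover counting error only.

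All libraries entered 1 fit of log2 (RPM + 0.5) on the 4 groups (limma 3.58.1, R 4.3.3, trended variances), for genes with at least 0.5 RPM in at least 6 libraries, with Benjamini-Hochberg adjustment over 18222 genes. A log2 change is on this scale and understates low genes. limma's fit was tested on simulated reads. The proteasome genes and all lists were chosen with earlier results of these data known. Values per group are given for members called, for the 3 of lowest p per contrast, for the cutting subunits and their counterparts, the caps, Psmf1 and the Psmg genes, and for genes called or of lowest p in each list. Psma1, Psmb2, Psmb4, Psmc5 and Psmd4 were named after their values were seen. For 1 gene of the ubiquitin list, values are not reported here. Alternatives were the RPKM as deposited, whole reads with limma-voom, pseudocounts of 0.1 and 2 RPM, no filter, a filter of 1 RPM in 14 libraries, 2 rescalings, 1 surrogate factor, array weights, fits of the compared groups alone, robust variances, the spiny neuron level as a covariate, leaving out 5 libraries over 20 RPM of Slc17a7, each library left out in turn and, chosen after seeing the data, RPM over nuclear genes. Promoters came from RefSeq. Python 3.11.15, pandas 2.3.3 and matplotlib 3.10.9 were used.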

Additional observations from a re-analysis of the deposited data

Results flagged for a closer look

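In 5 of 80 groups of libraries (20 named genes in 4 groups), 1 library lay far from the others by Dixon's test. Chance flags about 1 in 20 groups. Library TG crush 223 was the lowest for Psmd1, with 103 RPM against 127 to 141 RPM in the other TG crush libraries, and for Psmd2, with 142 RPM against 178 to 192 RPM. Library wt crush 203 was the lowest for Psmd2, with 171 RPM against 190 to 201 RPM in the other wt crush libraries, and for Psmb7, with 82.5 RPM against 88.6 to 91.1 RPM. These libraries had the highest mitochondrial share of their groups, 18.5% in TG crush 223 and 15.9% in wt crush 203, and the part of that share in their low values was not tested. Library TG crush 219 was the highest for Psmg1, with 26.6 RPM against 21.3 to 22.6 RPM in the other TG crush libraries, and it had the lowest mitochondrial share, 10.4%.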

How the results depend on the processing

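No paired analysis was possible because the groups share no replicate numbers. No call changed direction. The median over the 48 proteasome genes, close to 0, changed sign in 3 comparisons. It was -0.00065 for TG against wt in naive rats (-0.0113 to 0.0142 over all settings), 0.0041 for crush against naive in wt rats (-0.0101 to 0.0367) and -0.0211 in TG rats, where it was positive without TG crush 223 (0.0103). Of 48 proteasome genes, none passed between genotypes or for the interaction under any alternative. After crush in TG rats, against 1 gene as reported, 4 passed with 1 surrogate factor, array weights or the spiny neuron covariate (Psmb10, Psme1, Psme4 and Psmg3), 2 with the deposited RPKM (Psmb10 and Psme4), 0 without the libraries high in Slc17a7, and 1 to 3 with 1 library left out. After crush in wt rats, against 0, the surrogate factor gave 1 (Psmd1, adjusted p = 0.0323) and array weights gave 2 (Psma1 and Psmd1). Counts over all genes moved more. TG against wt in naive rats (6 genes) gave 10 with the surrogate factor, 2 with the compared groups alone, 2 without the Slc17a7 libraries and 2 to 7 with 1 library left out. In crush rats (1 gene) the surrogate factor gave 233, array weights and the compared groups alone 4 each, and RPKM, limma-voom, a pseudocount of 0.1 RPM, quantile normalization and leaving out the Slc17a7 libraries 2 each, with 1 to 6 on leaving out 1 library. Over both arms (7) the surrogate factor gave 11, RPKM 4, the Slc17a7 setting 2, and 1 library left out 5 to 8. Crush against naive in wt rats (29) gave 1986 with the surrogate factor, 1436 with array weights, 53 over nuclear genes (chosen after seeing the data), 45 with the compared groups alone, 19 with no filter, 15 without the Slc17a7 libraries, 10 with the spiny covariate, and 12 (without wt crush 210) to 510 (without wt naive 196) on leaving out 1 library. In TG rats (562) the counts were 1753 with array weights, 1282 with the spiny covariate, 1137 with the surrogate factor, 371 with no filter, 181 without the Slc17a7 libraries, 127 with the compared groups alone, and 224 (without TG crush 220) to 1218 (without TG crush 223) with 1 library left out. The interaction (1) gave 309 with the surrogate factor, 2 with array weights, 0 without the Slc17a7 libraries, and 1 to 5 with 1 library left out. The cause of these differences was not tested. Depth limits Psma8 and Psmb11 most.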
